A study of Mus musculus with 4 samples.

Results

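Boundaries of topologically associating domains (TADs) that occupied nearby but different positions in fetal and adult haematopoietic stem cells (HSCs) of the mouse are described here. They were chosen by their measured distance between the lists: a fetal boundary was taken as displaced when the nearest adult boundary on the same chromosome lay more than 10 kb and at most 100 kb away. The first and last boundary of each of the 19 autosomes were left out. Of 2233 inner autosomal boundaries in the fetal list, 550 met this rule, or 24.6% (95% exact Clopper-Pearson interval 22.9 to 26.5). A further 1414, or 63.3%, were held, with an adult boundary at the same position or 10 kb away, and 269, or 12.0%, were more than 100 kb from any adult boundary.

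A TAD is a stretch of chromosome whose parts meet each other more often than they meet the neighbouring stretches. Cohesin is thought to extrude chromatin loops until it is stopped at sites bound by CTCF, and such sites, together with active promoters, are common at TAD boundaries. A boundary limits which enhancers reach which promoters, so its position decides on which side a regulatory element lies. HSCs expand in the fetal liver, and most HSCs of the adult marrow divide rarely.

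The contact maps behind the lists were made by Hi-C, which ligates fragments of fixed chromatin that are near each other in space and reads the junctions by sequencing. Per the labels, 2 samples were fetal liver HSCs at embryonic day 14.5 and 2 were HSCs of adult bone marrow at 6 to 8 weeks of age, all of the strain B6129SF1 and without a further allele or treatment. Cells of both ages were sorted as Lin-, Sca1+, cKit+ and CD135-, a gate for which the labels name no further stem cell marker, so it may also hold multipotent progenitors. The lists hold no expression values, so the cell type could not be checked against its markers.

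The files hold 1 list of TAD coordinates per cell type. No spread between replicates could therefore be measured, and a displacement cannot be told apart from the scatter with which repeated maps would place the same boundary. The depth behind the lists is unknown. Values below are descriptions of these lists with no test, and their intervals cover counting error only and treat boundaries as independent. Positions are those of the files, in mm9 per the submitters' processing notes, and give the last base before the boundary. Sequence at the boundaries was not analysed here, and neither were the genes beside them.

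Most displacements were short. Positions lay on a grid of 10 kb, so the smallest possible displacement was 20 kb, and 283 of the 550 displaced boundaries, or 51.5% (47.2 to 55.7), moved by that amount. Another 114 moved by 30 kb, 51 by 40 kb and 42 by 50 kb. Only 60, or 10.9%, moved by more than 50 kb, and 10 lay at the upper limit of 100 kb. The median was 20 kb (95% order-statistic interval 20 to 30) and the mean 32.4 kb. Just inside the lower limit stood the 283 boundaries at 20 kb, and just outside it the 763 at 10 kb. At the upper limit the counts no longer fell, with 10 boundaries at 100 kb, 7 at 110 kb and 2 to 10 at each step from 110 to 200 kb.

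**Figure D1:**
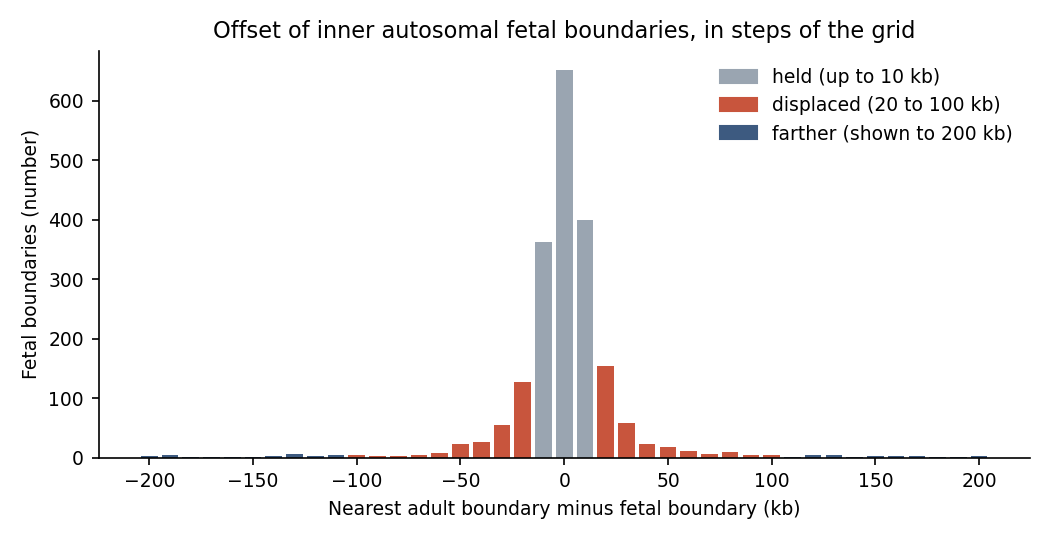
The horizontal axis is the position of the nearest adult boundary minus that of the fetal boundary, in kb, and the bars count inner autosomal fetal boundaries at each step of 10 kb. The counts fall from 651 at the same position to 155 and 128 at 20 kb on either side and to 5 and 5 at 100 kb.

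Displacement went both ways along the chromosome. The adult boundary lay at the higher coordinate for 292 displaced boundaries, which was 13.1% of all inner fetal boundaries, and at the lower coordinate for 258, or 11.6% of them. Among the displaced boundaries the first group made up 53.1% (48.8 to 57.3), an interval that holds an even division. The mean signed offset, adult minus fetal, was 2.09 kb. By chromosome, more boundaries lay higher in the adult list on 12 autosomes, more lay lower on 5, and the counts were equal on 2. The boundaries of the adult list, sorted by the same rule against the fetal list, gave 554 displaced of 2225, or 24.9%. These were nearly all the same pairs read from the adult side, so this is not an independent count.

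The pairing of fetal and adult boundaries was nearly always mutual, but this was largely built in. Members lay at most 100 kb from their partner, while median fetal TAD lengths ran from 680 to 1080 kb by autosome. The rule thus left little room for other pairings or shared partners. For 549 of the 550 the displaced boundary was in turn the nearest fetal boundary of its adult partner, and 0 shared a partner with another displaced boundary. The exception lay on chromosome 16 at 3725000. Its adult neighbour at 3825000, 100 kb away, was 10 kb from another fetal boundary at 3835000. Summed over all members, 17.8 Mb lay between fetal and adult positions, which was 0.817% of the 2181 Mb that fetal TADs covered on the autosomes. These stretches changed sides, since sequence between the positions belonged to one TAD in the fetal list and to its neighbour in the adult list wherever TADs adjoined at both positions. That was so for 514 displaced boundaries, or 93.5%.

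Displaced boundaries bordered TADs of much the same length as held ones. The shorter of the flanking fetal TADs had a median of 560 kb (540 to 590) over the 527 displaced boundaries between adjoining TADs, with quartiles of 380 and 825 kb. For the 1364 held boundaries of this kind it was 580 kb (560 to 590), with quartiles of 460 and 800 kb. The medians differed by less than the width of either interval, while the lower quartile was 80 kb lower for displaced boundaries. For the 246 boundaries more than 100 kb from an adult one the median was 490 kb (440 to 520). The longer flanking TAD had medians of 1140, 1130 and 1010 kb for displaced, held and far boundaries.

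Displacement was small beside these lengths. It came to a median of 4.94% of the shorter flanking TAD (4.55 to 5.26), with quartiles of 3.10 and 8.33%. It passed 10% of that length for 100 of 527 boundaries and 25% for 25. Over all boundaries between adjoining TADs, the share displaced was 26.7% (21.9 to 32.0) where the shorter flanking TAD was at most 300 kb, and ran from 22.7 to 31.2% in the 5 classes of longer TADs. In the shortest class 24.8% were more than 100 kb from an adult boundary, against 8.45 to 11.2% in the others. Among boundaries that had an adult partner within 100 kb, the share displaced was 35.5% (29.3 to 42.0) up to 300 kb and 35.2% (28.2 to 42.6) from 300 to 400 kb. It was 25.3%, 24.9% and 24.9% in the 3 classes from 400 to 1000 kb, and 29.9% (24.1 to 36.2) above 1000 kb. The interval of the shortest class lay above that of the class from 500 to 700 kb (21.4 to 28.7) and overlapped those of the other classes.

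The direction of displacement differed with the lengths of the TADs on either side. Of 513 displaced boundaries between TADs of unequal length that adjoined in both lists, 320 lay inside the longer fetal TAD in the adult list, or 62.4% (58.0 to 66.6), so that the shorter TAD reached further in adult than in fetal HSCs. Which TAD counts as the shorter one depends on the list that is read, so the count was repeated with adult lengths. It gave 302 of 510, or 59.2% (54.8 to 63.5), and the mean of fetal and adult lengths gave 313 of 511, or 61.3% (56.9 to 65.5). By fetal lengths more than an even share moved this way on 18 of 19 autosomes, and by adult lengths on 17. This comparison was chosen after values had been seen.

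The same direction was found in boundaries that the rule left out. Of 721 held boundaries that lay 10 kb from their partner between unequal TADs, 423 lay inside the longer fetal TAD, or 58.7% (55.0 to 62.3), and by adult lengths 415 of 718 did, or 57.8% (54.1 to 61.4). Among displaced boundaries the share was 66.8% (60.8 to 72.4) at 20 kb and 61.2% (51.1 to 70.6) at 30 kb, by mean lengths. It was 55.3% (44.1 to 66.1) at 40 or 50 kb and 43.6% (30.3 to 57.7) at 60 to 100 kb, and both of these intervals held 50%. By adult lengths the share was 57.1% (47.1 to 66.8) at 30 kb and 42.6% at 60 to 100 kb, and by fetal lengths it was 58.2% (44.1 to 71.3) at 60 to 100 kb. Whether it differed between short and long displacements was not tested.

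**Figure D2:**
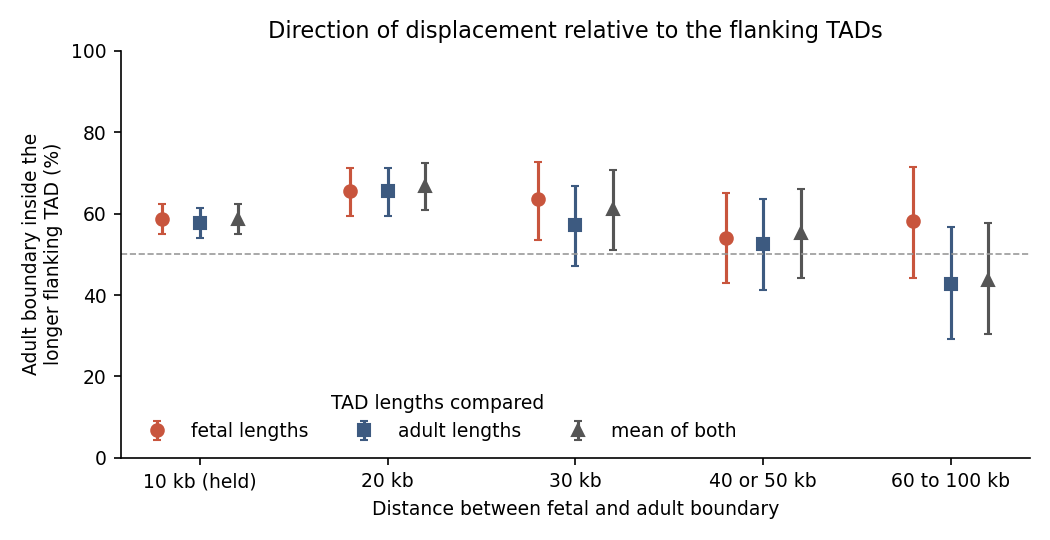
For each distance between the fetal and adult boundary, points give the percentage of boundaries whose adult position lay inside the longer of the flanking TADs, by fetal, adult or mean TAD lengths, and bars give 95% exact intervals. All 3 measures lie above the dashed line at 50% for 10, 20, 30 and 40 or 50 kb, while at 60 to 100 kb they spread from 42.6% to 58.2%.

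The lengths of whole TADs showed the other side of this shift. Of 2204 autosomal fetal TADs, 920 had a displaced boundary at 1 or both ends, or 41.7%, and 697 of these corresponded to 1 adult TAD spanning the partners of both ends. Over these 697 the median change in length was 0 kb, with 342 longer and 337 shorter in the adult list. A displaced boundary between adjoining TADs lengthens one and shortens the other, so a near balance was largely built in. By length the TADs differed, but these classes draw on the same boundaries as the direction above and are no separate evidence. Of 44 TADs with a mean length over both lists of at most 300 kb, 34 were longer in the adult list, with a median gain of 30 kb, and of 105 TADs from 300 to 500 kb, 74 were longer, with a median gain of 20 kb. In each of the 4 classes above 500 kb fewer were longer than shorter, for example 65 against 91 from 700 to 1000 kb, and the median change was -10 kb.

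Among TADs with no displaced end, the direction in the shortest class was the same. Of 38 TADs up to 300 kb, 21 were longer and 7 shorter in the adult list, with a median change of 10 kb. From 300 to 500 kb 51 were longer and 29 shorter, and from 500 to 700 kb the counts were 73 and 73. In each class above 700 kb fewer were longer than shorter. Over all 867 such TADs, 319 had the same length in both lists, 271 were longer and 277 shorter. These changes come largely from the held boundaries at 10 kb counted above, so they are no separate evidence.

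**Figure D3:**
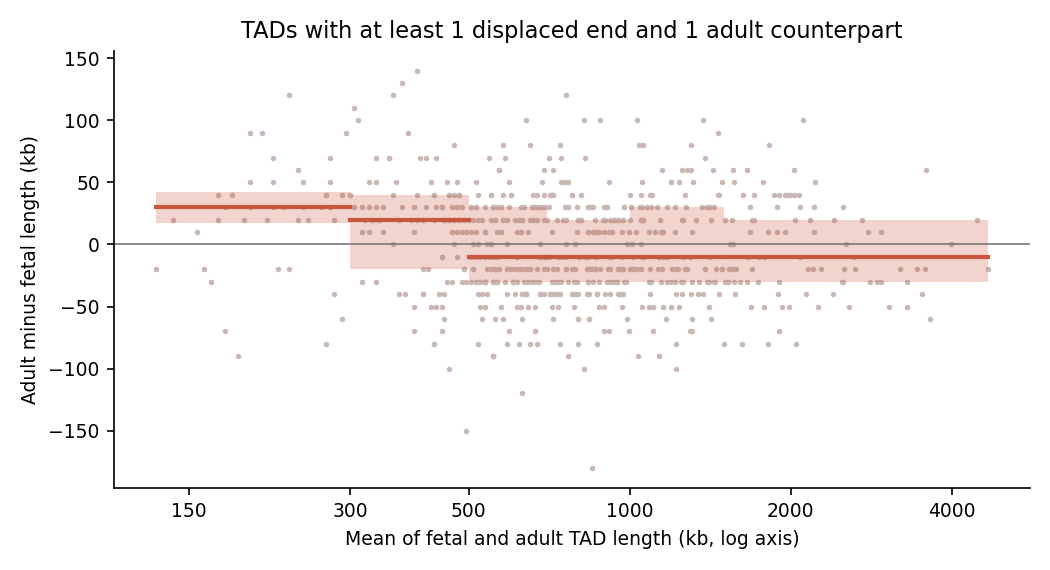
Each point is a TAD with at least 1 displaced end and 1 adult counterpart, plotted by the mean of its fetal and adult length in kb on a log axis and by its adult minus fetal length in kb. Red lines and bands give the median and quartiles in 6 length classes, at 30 kb up to 300 kb, 20 kb from 300 to 500 kb and -10 kb in the classes above.

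In 142 places the displacement could be seen in its simplest form. There the outer ends of both flanking TADs were held and the adult list had a single boundary between them, so that neighbouring TADs exchanged sequence across 1 boundary. These isolated boundaries were 25.8% of all displaced boundaries. They moved by 20 kb in 79 cases, 75 to the higher and 67 to the lower coordinate, and by a median of 5.03% of the shorter TAD, with a range of 1.12 to 29.0%. The shorter fetal TAD gained at that boundary in 89 of them, or 62.7% (54.2 to 70.6). It did so in 71 of the 101 that moved by 20 or 30 kb, and in 18 of the 41 that moved by 40 kb or more.

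Among these isolated boundaries the largest relative exchange was on chromosome 15. Fetal TADs of 590 and 310 kb, from 81185001 to 82085000, met at 81775000, and the adult boundary lay 90 kb further on, at 81865000. The adult TADs measured 690 and 230 kb, so here the longer TAD gained, and the displacement was 29.0% of the shorter one. On chromosome 8 fetal TADs of 150 and 750 kb between 107825001 and 108725000 met at 107975000. The adult list had the same outer ends and placed the boundary at 108015000, which gave TADs of 190 and 710 kb. On chromosome 2 the boundary between fetal TADs of 960 and 140 kb at 84765000 lay at 84795000 in the adult list, and the smaller TAD was 120 kb there.

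The 3 next largest relative exchanges ranged from 17.02 to 18.4% of the shorter TAD. On chromosome 15 a second boundary moved from 86425000 to 86495000, and TADs of 380 and 2090 kb became TADs of 450 and 2010 kb. On chromosome 9 the boundary at 96065000 lay at 96105000 in the adult list, with TADs of 220 and 730 kb in the fetal and 270 and 690 kb in the adult list. On chromosome 13 the boundary at 3475000, between TADs of 470 and 550 kb, lay 80 kb lower at 3395000, between TADs of 390 and 620 kb. Of these 6 boundaries 5 lay at a higher coordinate in the adult list, and in 3 of them the shorter fetal TAD gained.

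Displaced boundaries also stood next to each other. In the fetal list 276 of them, or 50.2%, had no displaced neighbour, 154 stood in pairs, 87 in runs of 3, and 33 in longer runs. Of the neighbours of displaced boundaries, 29.7% were displaced, against 22.0% of the neighbours of held boundaries and 26.7% of those of far boundaries. Without chromosomes 11 and 19 these values were 26.3%, 21.3% and 25.3%.

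Neighbouring displaced boundaries more often moved in opposite directions than together. There were 161 such neighbouring pairs, 77 of them alone and the others in longer runs, where successive pairs shared a boundary. In 59 of the 161, or 36.6% (29.2 to 44.6), both moved the same way. The intervals here treat pairs as independent and leave this sharing out of account. In 54 the boundaries drew together and in 48 they drew apart. Without chromosomes 11 and 19, 49 of 125 pairs moved the same way, or 39.2% (30.6 to 48.3).

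Most of these pairs were the ends of a single fetal TAD, 157 in all, and for 142 the adult list held 1 TAD spanning both partners. Of the 157, 58 had both ends displaced the same way along the chromosome, 52 were narrowed from both ends and 47 were widened at both ends in the adult list. Among those with 1 adult counterpart, the 43 widened TADs had a median fetal length of 400 kb and the 47 narrowed ones of 830 kb. By the mean of fetal and adult length, 26 of the 32 TADs up to 500 kb were widened, and 41 of the 58 longer ones were narrowed. The ends of these TADs were mostly counted already in the direction relative to TAD lengths above, so this split is no separate evidence. Of the 52 TADs with both ends displaced the same way and 1 adult counterpart, 18 had the same length in both lists, and the ratio of adult to fetal length had a median of 1.00 and a range of 0.667 to 1.10.

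Among all TADs with both ends displaced and a single adult counterpart, the largest relative changes in length, up or down, came from short TADs. This was built in, because each end could move by at most 100 kb and only short TADs could change by such ratios. On chromosome 10 a fetal TAD of 170 kb, from 116475001 to 116645000, corresponded to an adult TAD of 290 kb, from 116375001 to 116665000. Its start lay 100 kb lower and its end 20 kb higher, and the ratio was 1.71. On chromosome 6 adjoining TADs changed in opposite ways. The fetal TAD from 146355001 to 146505000, of 150 kb, was 240 kb long in the adult list, and its neighbour from 146505001 to 146735000, of 230 kb, was 140 kb long there. Their common boundary lay 70 kb higher in the adult list, and their outer ends each moved by 20 kb.

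The longest run lay on chromosome 19, where 8 successive fetal boundaries from 25725000 to 31855000, over 6130 kb, were displaced. The adult list also had 8 boundaries between the first and last partner. Their offsets, adult minus fetal, were in order 40, 60, -20, 40, -50, -20, 50 and -40 kb, so 4 lay higher and 4 lower. The 9 boundaries that followed were all held, 7 of them at the same position, and so was the boundary before the run. The next longest run was 5 boundaries on chromosome 1 from 121365000 to 123485000, with offsets of -20, -20, 30, -40 and 30 kb. There were 5 runs of 4, and the one with the largest summed displacement lay on chromosome 2 from 103895000 to 106085000, with offsets of 20, 20, 20 and -100 kb. On chromosome 2 the first 3 moved together, and 2 TADs of 760 and 470 kb between them had the same lengths in both lists. Between the first and last partner of that run the adult list had 5 boundaries, for 4 fetal ones. The fetal boundary after the run on chromosome 1 was 1230 kb from any adult one.

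Chromosomes 19 and 11 had the highest shares of displaced boundaries. On chromosome 19 it was 24 of 48 inner boundaries, or 50.0% (35.2 to 64.8), and on chromosome 11 it was 44 of 97, or 45.4% (35.2 to 55.8). On the other 17 autosomes it ran from 16.3 to 27.8%, with a median of 24.0%. The lowest shares were those of chromosome 10, with 21 of 129, or 16.3% (10.4 to 23.8), and chromosome 16, with 17 of 92, or 18.5% (11.1 to 27.9). The intervals of chromosomes 11 and 19 lay above those of the other autosomes, except chromosomes 14 (18.7 to 36.5) and 18 (17.2 to 36.9), which they overlapped. Chromosomes 19 and 11 also had the longest median fetal TADs, 1080 and 990 kb. On the other autosomes these medians ran from 680 to 860 kb. Far boundaries were 21 of 97 on chromosome 11, 6 of 48 on chromosome 19 and 22 of 104 on chromosome 14, against 12.0% over all autosomes. Whether these features bear on the share displaced was not tested.

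**Figure D4:**
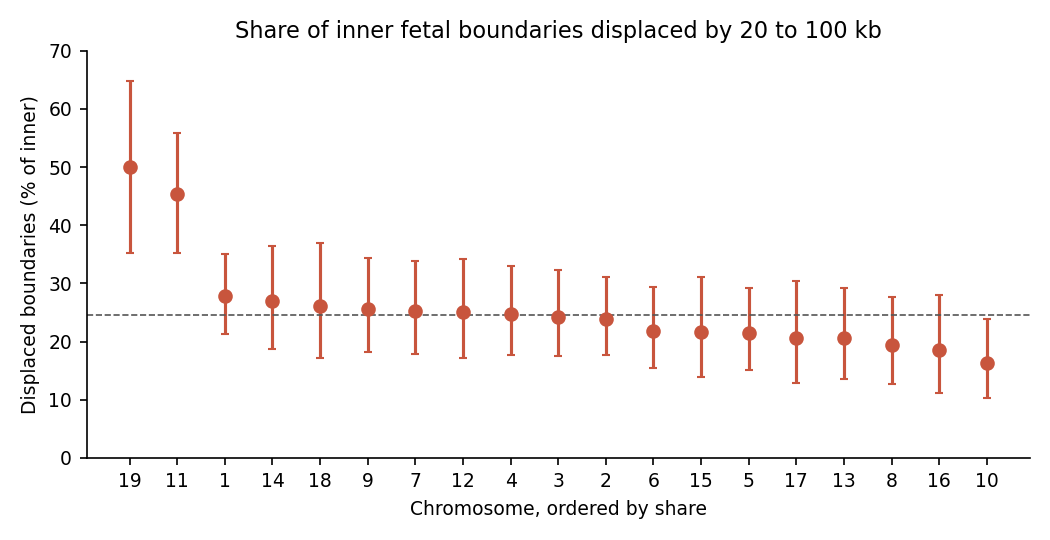
Points give the percentage of inner fetal boundaries displaced by 20 to 100 kb on each autosome, ordered from highest to lowest, bars give 95% exact intervals, and the dashed line marks 24.6%, the share over all autosomes. Chromosomes 19 and 11 stand at 50.0% and 45.4%, and the other 17 lie between 16.3% and 27.8%.

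Longer displacements made up a larger share on chromosome 11, and less clearly on chromosome 19. Distances of 40 kb or more were 21 of 44 on chromosome 11, or 47.7%, and 9 of 24 on chromosome 19, or 37.5%, while on single other autosomes they ran from 12.9 to 42.9%, the highest on chromosome 14. Of the 68 displaced boundaries of chromosomes 11 and 19 together, 30 had moved by 40 kb or more, or 44.1% (32.1 to 56.7), and 22 by 20 kb. On the other autosomes together 123 of 482 had moved by 40 kb or more, or 25.5% (21.7 to 29.7), and 261 by 20 kb. The medians were 30 and 20 kb, and 5 of the other autosomes also had a median of 30 kb. With an upper limit of 50 kb the share on chromosome 11 fell to 33.0%, while on chromosome 19 it was 45.8%. The displacements on these chromosomes had no common direction, with 37 to the higher and 31 to the lower coordinate, and 3 of the 68 were isolated, or 4.41%, against 139 of 482, or 28.8%, elsewhere. Boundaries at the same position in both lists made up 11.3% of the inner boundaries on chromosome 11 and 18.8% on chromosome 19, against 22.1 to 39.3% on the other autosomes and 29.2% over all 19. A high share of displaced boundaries leaves fewer to be held, so these values are not independent.

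**Figure D5:**
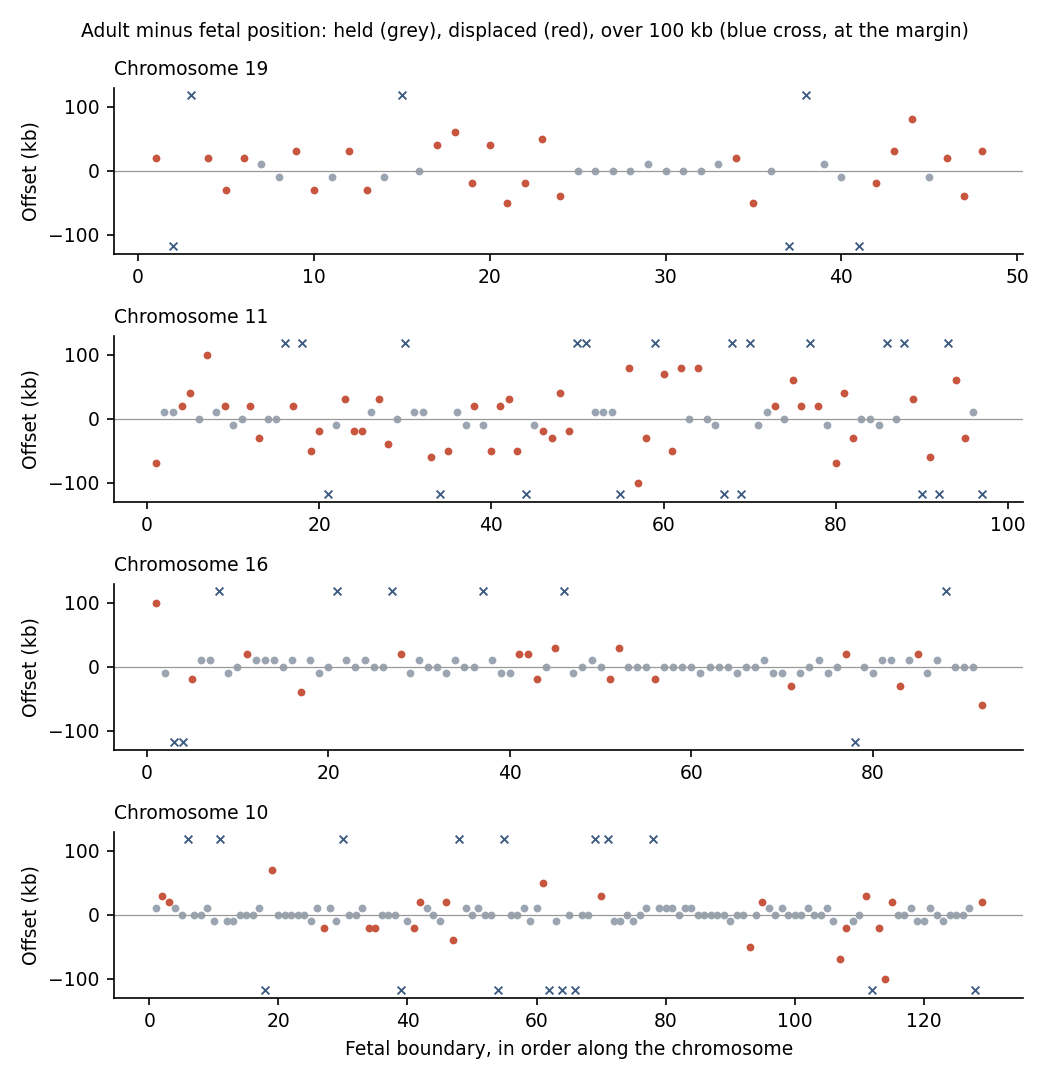
Each panel is a chromosome, with its inner fetal boundaries in order along the horizontal axis and the adult minus fetal offset in kb on the vertical axis. Displaced boundaries are red and held ones grey, and those more than 100 kb from an adult boundary are blue crosses at the margin on the side of the nearest one. The run of 8 displaced boundaries on chromosome 19 is followed by 9 held ones, and red points make up 45.4% on chromosome 11, 18.5% on chromosome 16 and 16.3% on chromosome 10.

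Position along the chromosome made little difference. With each chromosome divided into 10 parts of equal length, the share of displaced boundaries per part, pooled over the autosomes, ran from 22.1 to 27.8%. Each of the 10 intervals held the overall 24.6%.

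Few displaced boundaries lay beside a stretch without a TAD. These were 23 of 550, or 4.18% (2.67 to 6.21), against 50 of 1414 held boundaries, or 3.54% (2.64 to 4.64), and 23 of 269 far ones, or 8.55% (5.50 to 12.6). For 20 of the 23 the adult partner was an edge facing the same way. The stretch reached further in the adult list at 8 of these and less far at 12.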

How the data were processed

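Hi-C had been done on 2 fetal and 2 adult samples. The authors deposited 1 TAD list per cell type, as base-pair coordinates with no score, and the labels point to that list for both replicates. HiC-Pro, GSNAP and mm9 are named in the submitters' processing notes, with no version. The sources used here do not give the TAD caller, its settings or whether samples were pooled, and each could move a boundary by steps of the grid. All but 10 coordinates of each list lay on a 10 kb grid.

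Each position at which a TAD started or ended counted as 1 boundary. Distances, lengths and counts were computed with Python 3.11.15, pandas 2.3.3 and SciPy 1.17.1. The rule was run on an adult list simulated by shifting boundaries of the fetal list, with none added or removed. Only boundaries far from their neighbours were displaced in it, so this checked the code and not the pairing in crowded or changed regions. Shares carry 95% Clopper-Pearson intervals and medians 95% order-statistic intervals.

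Members, groups and comparisons were chosen with earlier results of these lists known. Places named singly were the 6 isolated boundaries with the largest displacement relative to the shorter flanking TAD, the 3 longest runs (ties by the larger summed displacement), the 3 TADs with both ends displaced and the most changed length, and the 4 autosomes with extreme shares, 2 at either end. The boundary without a mutual partner was named after its values were seen. Gene positions were at hand for GRCm38 alone, a different build, and were not used.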

Additional observations from a re-analysis of the deposited data

How the results depend on the processing

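Of 40 alternative values, 36 stayed within their 95% interval or, for counts, within 1.5 times the reported value, and 4 moved. Several of the 36 could hardly have moved, so this tally is no measure of robustness. Keeping mutual pairs removed 1 displaced boundary, and leaving out chromosomes 11 and 19 removed 12.4% of them. Starting from the adult list mostly counted the same pairs from the other side. Counting only distances of more than 20 kb left 267 displaced boundaries, because 283 stood at 20 kb. The number of isolated boundaries was 227 with outer ends within 20 kb and 40 with outer ends at identical positions, since these settings admit more or fewer by construction. With an upper limit of 50 kb the share on chromosome 11 was 33.0%, just below its interval. The number of displaced boundaries otherwise lay between 482, without chromosomes 11 and 19, and 582, with chromosome X. The share that moved into the longer TAD lay between 59.2 and 63.0%. The alternatives without chromosome 19, without chromosomes 11 and 19, and all those on the longer TAD were chosen after seeing the data.

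No paired analysis was possible because each list stood for both replicates of its cell type, which also meant that replicates could not be left out in turn. Genes and sequence at the boundaries were not run, for want of positions in the build of the lists. The unknown depth limits every value: how far a boundary would move between repeated maps of 1 cell type was not measured.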

Other observations

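Boundaries outside the rule were sorted in the same way. On chromosome X, 32 of 120 inner fetal boundaries were displaced by 20 to 100 kb, or 26.7% (95% exact interval 19.01 to 35.5), with a median of 25 kb, 17 at a higher and 15 at a lower coordinate in the adult list. Of the 38 first and last autosomal boundaries, 1 was displaced by such a distance.

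For 13 displaced boundaries the fetal TADs adjoined while the adult partner stood at the edge of a stretch without a TAD, and for 3 it was the other way round.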
